A study of Mus musculus with 8 samples.

Results

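Islets of diabetogenic and protected mice were compared on day 3 after T cell transfer, on 2 of the 8 arrays of the series. The protected mice differed by antibody injections that neutralise interferon-γ (IFN-γ). The comparison addresses which early islet transcripts depend on IFN-γ. The difference between the arrays was described across genes with no test, because each group was a single array. Of 18194 genes with a probe set that carried 1 gene symbol, the 4805 (26.4%) with an intensity of 10 or more on either day 3 array were kept.

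The series profiled pancreatic islets of NOD.Scid mice, which cannot form mature T or B lymphocytes but keep their macrophages and other innate cells, on a background prone to autoimmune diabetes. The diabetogenic group had received CD4+ BDC2.5 T cells at day 0, whose single transgenic receptor recognises an antigen of beta cells. The protected group had received the same cells and 2 injections of an antibody against IFN-γ, on days -1 and 2, and per the submitters' design text these mice stayed free of diabetes. The untreated group was NOD.Scid islets at day 0 with no transfer and is given as a level beside the other 2. RNA of 5 mice was pooled for each array, islets were cut out by laser capture, and no age of the mice and no control antibody is given in the sources used here. An action of the injections other than neutralising IFN-γ therefore cannot be told apart from neutralisation. Pooling leaves no spread between mice to measure, so every difference below belongs to this pair of pools and their number limits the precision.

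IFN-γ is the main cytokine of T helper 1 cells. Its receptor signals to GAS sites in promoters and induces the transcription factor IRF1, and factors of the IRF family act through ISRE sites. Known targets are GTPases that attack vacuoles holding microbes, chemokines that draw T cells through the receptor CXCR3, and the machinery that presents peptides on MHC class I. IL-4 and IL-13 act instead through STAT6 and, in mouse macrophages, induce the alternatively activated state marked by Arg1, Chil3 and Retnla.

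GAS, ISRE and STAT6 letters in the promoters of 7 genes described below are shown first, because many of the largest day 3 differences lie in genes known to answer these factors. All 7 hold a match and each stretch was placed where it shows one, so they are examples and not a sample of promoters. Each line gives 100 bases of the RefSeq promoter (mouse build GRCm38.p6, 5′ to 3′ on the strand of the gene), and capitals mark every match to TTCNNNGAA (GAS-like), GAAANNGAAA (ISRE-like) or TTCNNNNGAA (STAT6-like) on either strand. The stretches are chr3:142620543-142620642 (plus strand) for Gbp2, chr3:142559924-142560023 (plus) for Gbp3, chr3:142530216-142530315 (plus) for Gbp7, chr11:58199436-58199535 (plus) for Igtp, chr11:53769894-53769993 (plus) for Irf1, chr5:92349040-92349139 (minus) for Cxcl10 and chr16:48842409-48842508 (plus) for Retnla.
Gbp2: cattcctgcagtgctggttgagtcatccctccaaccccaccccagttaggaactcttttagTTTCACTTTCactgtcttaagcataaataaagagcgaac
Gbp3: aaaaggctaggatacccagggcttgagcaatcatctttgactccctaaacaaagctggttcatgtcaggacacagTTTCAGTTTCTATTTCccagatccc
Gbp7: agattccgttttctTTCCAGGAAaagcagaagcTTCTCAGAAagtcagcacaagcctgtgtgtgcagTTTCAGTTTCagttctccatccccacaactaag
Igtp: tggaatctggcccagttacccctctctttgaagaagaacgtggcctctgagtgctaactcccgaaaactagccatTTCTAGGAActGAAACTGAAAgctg
Irf1: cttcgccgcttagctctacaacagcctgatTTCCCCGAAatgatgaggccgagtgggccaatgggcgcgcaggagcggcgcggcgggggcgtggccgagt
Cxcl10: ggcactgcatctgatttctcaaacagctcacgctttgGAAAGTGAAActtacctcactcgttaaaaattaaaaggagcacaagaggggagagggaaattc
Retnla: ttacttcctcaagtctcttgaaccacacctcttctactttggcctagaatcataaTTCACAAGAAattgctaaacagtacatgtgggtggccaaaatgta
In Igtp the GAS-like match ended 37 bases before the start and the ISRE-like match began 34 bases before it. Gbp7 held 2 GAS-like matches and an ISRE-like match further down. In Gbp3 the capitals cover 2 ISRE-like matches on the reverse strand that overlap, and in Gbp2 the ISRE-like match lay 59 to 50 bases before the start. Irf1 held a GAS-like match only, and Retnla a STAT6-like match only. The letters did not divide the named genes by direction. GAS-like matches also lay in Chil3, Ccl17, Dab2 and Reg3b, which were lower in diabetogenic islets. STAT6-like matches also lay in Psmb10, Dydc1 and another promoter window of Gbp3, which were higher.

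Both day 3 arrays had signal of like strength. The median intensity was 3.35 on the diabetogenic array, 3.14 on the protected array and 3.42 on the untreated array, and the 99th percentile was 89.5, 86.6 and 94.9 in the same order. Signal at the 3′ end over that at the 5′ end, a ratio that rises with degraded or short RNA copies, was 5.54, 5.01 and 1.86 for Actb and 9.11, 8.49 and 5.14 for Gapdh, so the untreated array lies apart from the day 3 pair in this measure. The labelled tissue was borne out by its markers: Ins2 (insulin) read 4471, 4887 and 4277 and Gcg (glucagon) 2205, 2390 and 1996 on the diabetogenic, protected and untreated arrays. The captured material also held acinar genes, with Cela1, a pancreatic elastase, at 298, 267 and 253. The defining T cell genes Cd3e and Cd4 stayed under 10 on all 3 arrays.

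Most genes differed little between diabetogenic and protected islets. The difference of log2(intensity + 2), diabetogenic minus protected, had a median of -0.08 and an SD of 0.46 over the 4805 genes, and 4628 genes lay within 2-fold. Across genes, which are not independent replicates, the log2 values of the arrays correlated at r = 0.91. At 2-fold or more, 133 genes were higher in diabetogenic islets (2.77% of the genes kept) and 44 were lower (0.916%). At 4-fold or more, 36 were higher (0.749%) and 8 were lower (0.166%). Removing a lowess curve of the difference on the mean level changed the 2-fold split to 99 higher and 60 lower.

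**Figure D1:**
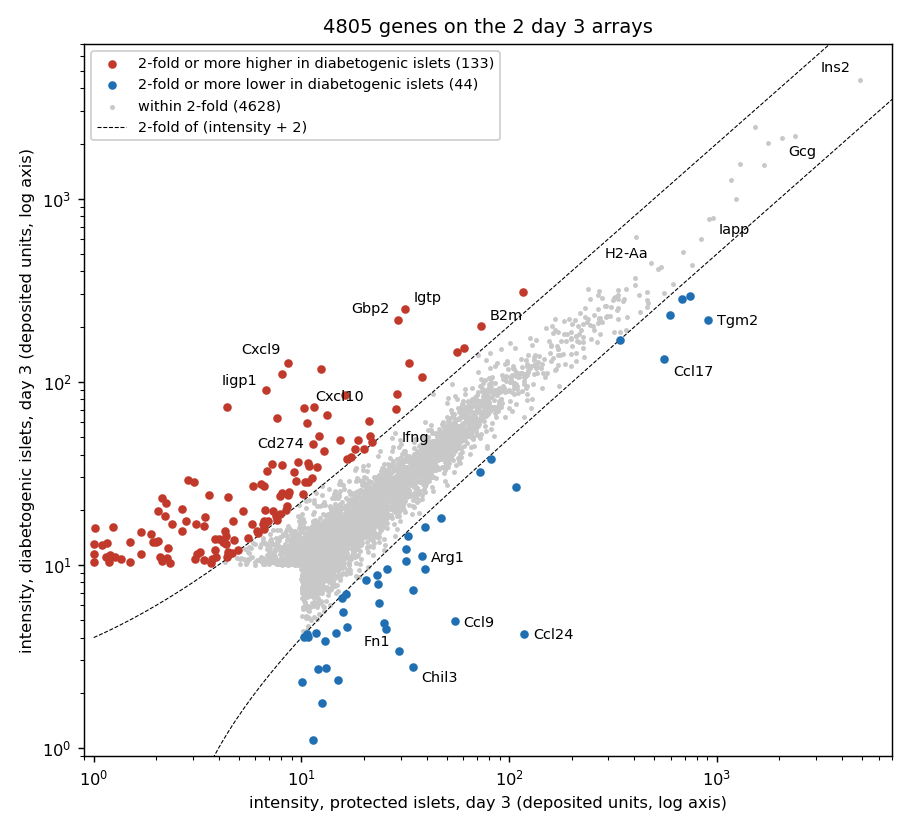
Intensity of each of 4805 kept genes in diabetogenic islets (vertical axis) against protected islets (horizontal axis) on day 3, in deposited units on log axes, with 1 array per group. Red points are the 133 genes 2-fold or more higher in diabetogenic islets and blue points the 44 that are 2-fold or more lower. The dashed lines mark a 2-fold difference of intensity + 2, and the hormone genes Ins2, Gcg and Iapp lie between them.

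The way a gene passed the intensity limit bears on these counts. Of the genes kept, 3802 reached 10 on both arrays, 471 on the diabetogenic array only and 532 on the protected array only. The 133 higher genes comprised 35 of the first kind and 98 of the second, and the 44 lower genes 15 of the first kind and 29 of the third. So 20.8% of the second kind were 2-fold or more higher and 5.45% of the third kind lower. In the first kind 0.921% were higher and 0.395% lower. Counts of called genes in the lists below are to be read against these percentages. Among the 98, the higher genes dim in protected islets, 23 (23.5%) belonged to any of the 38 gene lists used here, against 22 of the 35 (62.9%) that reached 10 on both arrays and 300 (6.24%) of all genes kept. The lists were chosen with earlier results of these data known, so these shares are no independent check on the genes. Close to the limit, C130021I20Rik (10 in diabetogenic and 5.97 in protected islets) was just inside and Limch1 (9.20 and 9.99) just outside. Close to the 2-fold line, Spats2l (17.5 and 7.64) counted as higher and Ms4a3 (21.2 and 9.74) did not, while Aplp1 (169 and 342) counted as lower and Fcgr3 (8.62 and 18.9) did not.

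Genes with a second probe set allowed a check on the same arrays. Of the 133 higher genes, 66 had another probe set. In only 15 did it reach 10 on either array, in 14 with the same sign and in 8 at 2-fold or more. Among the 98 higher genes that reached 10 on the diabetogenic array only, 49 had another probe set. It reached 10 in 4 of them and 2-fold or more in 1. For the 35 higher genes that reached 10 on both arrays these numbers were 17, 11 and 7. The check thus says little about the 98. Of the 44 lower genes, 20 had another probe set. In 10 it reached 10, in 9 with the same sign and in 4 at 2-fold or more. Over all 985 kept genes with a second probe set at 10 or more, 622 had the same sign. The differences correlated at r = 0.453 across these genes. The main and the second difference were 3.39 and 3.10 for Iigp1, 3.05 and 2.96 for Gbp6, 2.80 and 2.69 for Gbp2, and -2.05 and -2.10 for Tgm2. Tgm2 had 5 other probe sets in all, with differences from -2.14 to 0.90. The probe sets disagreed for Rnf213 (1.45 and -0.99) and Psmd13 (-1.24 and 0.11), which were picked out here after their values were seen.

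**Figure D2:**
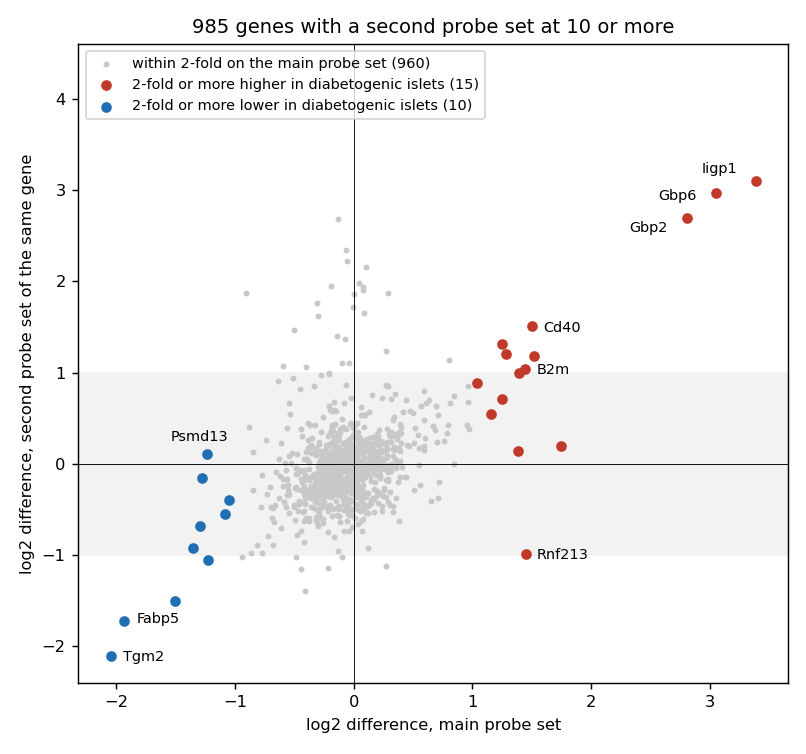
Day 3 difference of log2(intensity + 2), diabetogenic minus protected, on a gene's main probe set (horizontal axis) and on its second probe set (vertical axis), for 985 genes whose second probe set reached 10 on either array. Red points are the 15 genes with 2-fold or more higher main values and blue points the 10 with 2-fold or more lower ones, and the grey band marks a second difference within 2-fold. Iigp1, Gbp6 and Gbp2 lie at the upper right on both measures, and Rnf213 is the red point below 0.

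IFN-γ-inducible GTPases were higher in diabetogenic islets. The guanylate-binding proteins (GBPs) coat and break the vacuoles in which microbes hide. Of 6 with a probe set, 5 were kept, and all 5 were 2-fold or more higher in diabetogenic islets, with a median log2 difference of 2.76 (2.46 over all 6, and -0.08 over all genes kept). Gbp2 read 216 in diabetogenic, 29.3 in protected and 5.17 in untreated islets. Gbp6 read 118, 12.4 and 4.18 in that order, and Gbp3 63.2, 7.62 and 6.88. Gbp7 read 66.0, 13.3 and 7.65, a difference of 2.15, against 0.82 on its other, dimmer probe set. Protected islets thus lay above the untreated level for Gbp2 and Gbp6 and close to it for Gbp3.

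The immunity-related GTPases (IRGs), a family of the mouse that acts on the same vacuoles, were likewise higher in diabetogenic islets. Of 8 with a probe set, 7 were kept and 6 were 2-fold or more higher, with a median difference of 2.24 (2.13 over all 8). Iigp1, the family's best studied effector, read 89.6 in diabetogenic, 6.75 in protected and 4.54 in untreated islets, a difference of 3.39. Igtp (Irgm3), a regulatory member, read 250.4, 31.4 and 10.8, a difference of 2.92. Gm4951 read 111, 8.02 and 3.05, and Ifi47 read 84.2, 16.3 and 7.21. Irgq, a relative that is not known as an IFN-γ target, was not higher, at 10.9, 12.4 and 11.9. In Irgm1, at 17.4, 2.79 and 4.81, the protected value lay below the untreated one. Of the higher genes, 2 of the 5 GBPs and 4 of the 6 IRGs passed the intensity limit through the diabetogenic array only.

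The ligands of CXCR3, the receptor that guides T helper 1 cells into tissue, were higher too. Cxcl9, which is induced mainly by IFN-γ, read 127 in diabetogenic, 8.60 in protected and 1.20 in untreated islets. Its difference of 3.60, 12.1-fold on the scale of intensity + 2, was the largest among all genes kept, although a second, dimmer probe set of Cxcl9 differed by only 0.50. Cxcl10 read 71.8, 10.3 and 2.07, a difference of 2.59. The third ligand, Cxcl11, was too dim to be kept at 6.90, 3.64 and 3.38, as was Cxcr3 itself at 7.17, 5.88 and 4.87. With both dim genes included the list's median was 1.62, against 3.09 for the 2 kept.

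**Figure D3:**
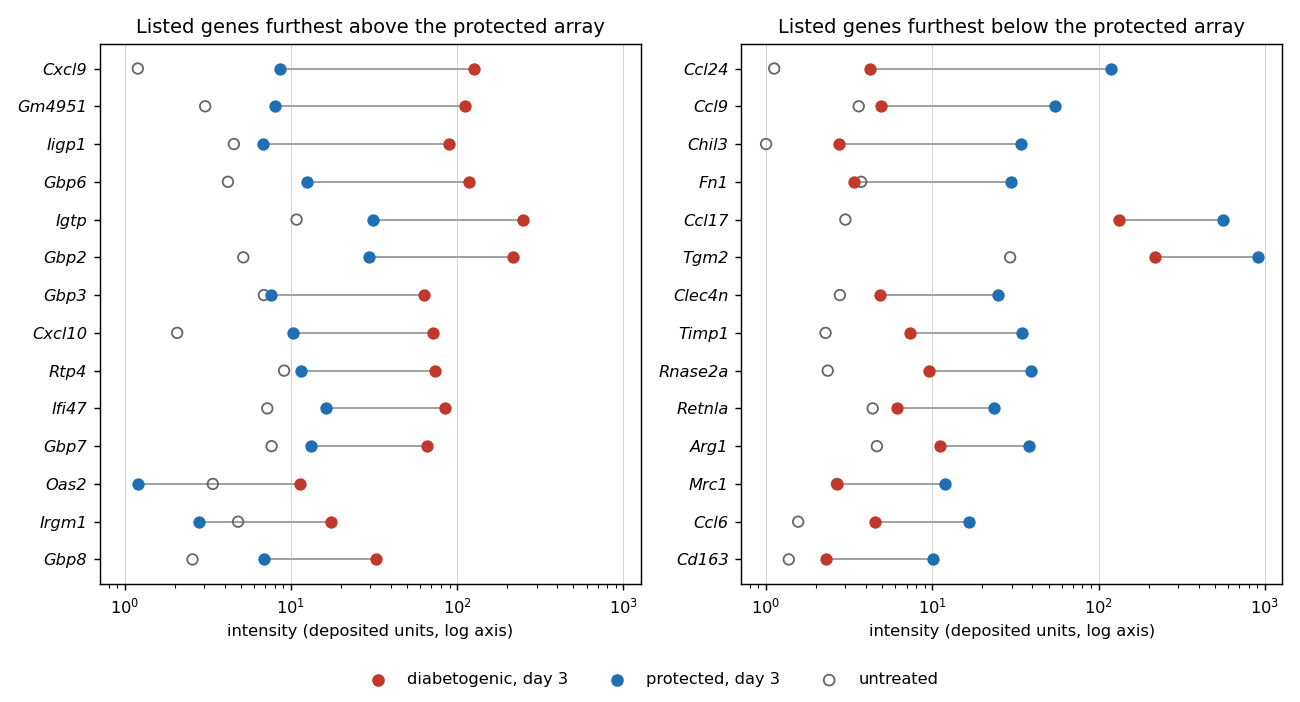
Intensity (deposited units, log axis) of the 14 listed genes with the largest positive differences (left) and the 14 with the largest negative differences (right), with red points for diabetogenic islets on day 3, blue points for protected islets on day 3 and open circles for untreated islets, 1 array each. Cxcl9 and Ccl24 head the panels. Protected islets lie above untreated ones for most genes on the left, with Oas2 and Irgm1 as exceptions, and the open circles lie at or below the protected level on the right throughout.

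The cytokine itself and its signalling chain differed less than these targets. Ifng read 43.8 in diabetogenic, 27.6 in protected and 1.92 in untreated islets, a difference of 0.63 that did not reach 2-fold, so its transcript was well above the untreated level in both groups given T cells. Of 19 signalling genes with a probe set 10 were kept, 2 were 2-fold or more higher and none lower, with a median difference of 0.44 (0.20 over all 19). Irf1 read 42.9, 18.2 and 10.8, a difference of 1.15, and Irf8, a factor of myeloid cells, read 22.1, 12.8 and 1.58. Irf7, which amplifies type I interferon, read 13.4, 2.00 and 3.85. Its difference of 1.94 became 0.65 when a lowess curve was removed. The part of the intensity limit in that curve at so low a mean level was not tested. The feedback inhibitor Socs3 ran the other way without reaching 2-fold, at 56.9, 76.6 and 9.43. The receptor chain genes Ifngr1 (6.72, 9.66 and 6.30) and Ifngr2 (5.55, 5.87 and 3.48) stayed under 10.

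Genes best known from the antiviral response to type I interferon were also higher in diabetogenic islets. Of 33 with a probe set 22 were kept, 21 had a positive difference and 14 were 2-fold or more higher, with none 2-fold or more lower and a median of 1.25 (0.82 over all 33). Of these 14, 9 passed the intensity limit through the diabetogenic array only. Among all genes kept in that way 20.8% were 2-fold or more higher and none could be 2-fold or more lower. Rtp4, an interferon-inducible chaperone, read 73.0 in diabetogenic, 11.5 in protected and 9.10 in untreated islets, though its second probe set differed by 0.19. Zbp1, a sensor of nucleic acids, read 35.2, 8.08 and 3.48, with 0.94 on its other probe set, and Phf11d read 31.9, 9.17 and 6.75. Oas2, which makes the activator of an RNA-degrading enzyme, read 11.3, 1.20 and 3.39. Its difference of 2.05 shrank to 0.09 after removal of the lowess curve, and the part of the intensity limit in that curve was again not tested. Mx1 (10.7, 10.1 and 4.97) and Eif2ak2 (9.36, 10.04 and 8.46), both classic type I interferon targets, hardly differed between diabetogenic and protected islets.

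Antigen presentation separated by class. On the MHC class I side, 18 genes had a probe set, 16 were kept and 5 were 2-fold or more higher, with a median of 0.75 for both the kept genes and all 18. B2m, the light chain of every class I molecule, read 203 in diabetogenic, 73.1 in protected and 22.99 in untreated islets. The peptide transporter gene Tap1 read 36.4, 9.62 and 1.63, with differences between -0.41 and 0.52 on its 3 other probe sets. The immunoproteasome subunits, which cut peptides for class I, were all higher: Psmb9 read 41.6, 12.8 and 2.62, Psmb8 read 70.6, 28.6 and 5.27, and Psmb10 read 153, 60.8 and 19.8. The general chaperones of the endoplasmic reticulum that serve the same pathway lay close to equality, with Calr at 64.6, 73.6 and 76.9 and Canx at 92.8, 93.2 and 108.

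On the class II side none of the 8 genes kept of 13 reached 2-fold in either direction, and the median was -0.13. H2-Aa, an alpha chain of class II, read 413 in diabetogenic, 519 in protected and 93.7 in untreated islets, and H2-Eb1 read 20.3, 17.97 and 2.59. Cd74, the invariant chain, read 22.96, 29.1 and 4.38. These class II genes were above the untreated level in both groups given T cells. The small negative difference of H2-Aa, -0.33, changed sign to 0.16 under quantile normalization. Ciita, the master regulator of class II, stayed under 10 at 6.50, 6.98 and 6.86.

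Among 19 costimulatory and checkpoint genes with a probe set only 3 were kept. All 3 were 2-fold or more higher, as were 2.77% of all genes kept. Of the 3, 1 (Il18bp) passed the intensity limit through the diabetogenic array only. Among all genes that passed in that way 20.8% were 2-fold or more higher. Cd274, the gene of the T cell inhibitor PD-L1, read 45.5 in diabetogenic, 11.4 in protected and 3.09 in untreated islets. Cd40, the receptor through which helper T cells activate macrophages, read 85.3, 28.9 and 3.41, with a second probe set that gave 1.51 against 1.5 on the first. Il18bp, a secreted inhibitor of IL-18, read 24.1, 8.62 and 4.19. The other 16 were dim on both arrays, and the median over all 19 was 0.16.

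Complement and acute phase genes were mixed. Of 17 with a probe set 5 were kept, 3 were 2-fold or more higher and 1 was lower. Of the 3 higher genes, 2 passed the intensity limit through the diabetogenic array only, a way in which 20.8% of genes were 2-fold or more higher. Serping1, the inhibitor of the first complement component, read 146 in diabetogenic, 56.1 in protected and 43.0 in untreated islets. C2 read 18.9, 7.90 and 8.12, though its 2 other probe sets differed by 0.07 and 0.55. Saa3, an acute phase protein of macrophages, read 19.8, 8.44 and 2.97. The protease inhibitor gene Serpina3n was lower in diabetogenic islets at 12.1, against 31.8 in protected and 3.41 in untreated islets.

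Cytotoxic and injury genes showed small differences. Of 29 with a probe set 11 were kept and only Gzma, a granzyme of T and natural killer cells, reached 2-fold, at 37.8 in diabetogenic, 16.6 in protected and 5.13 in untreated islets. Gzmb read 21.8, 11.6 and 2.30, and the inflammasome protease gene Casp1 read 11.8, 5.53 and 1.96. Nos2, the inducible nitric oxide synthase that IFN-γ raises in macrophages, was under 10 on the day 3 and untreated arrays at 3.62, 1.57 and 3.38. On day 8 it read 12.4 in diabetogenic and 1.12 in protected islets. The interleukin 1β gene Il1b read 10.4, 12.8 and 5.69.

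**Figure D4:**
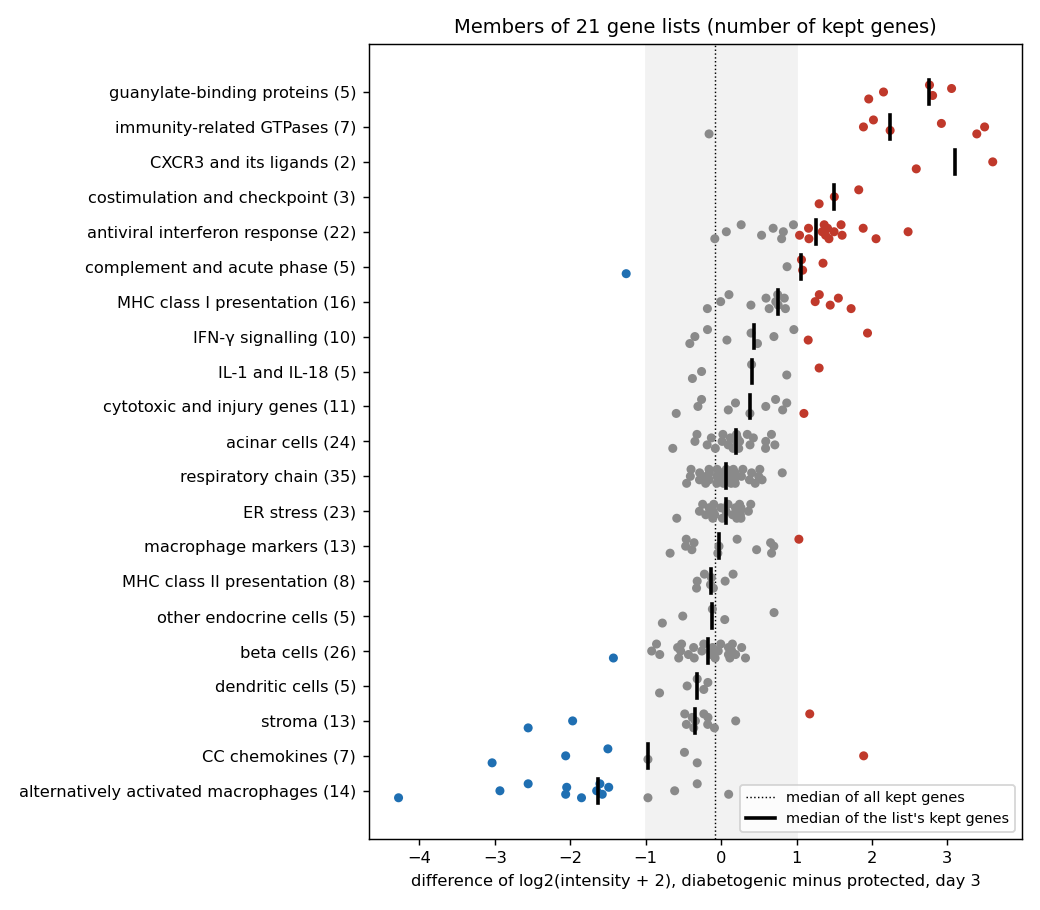
Day 3 difference of log2(intensity + 2), diabetogenic minus protected, for the kept members of 21 gene lists (1 point per gene, number of kept genes in brackets), with red points at 2-fold or more higher, blue points at 2-fold or more lower and a black bar at the list's median. The dotted line is the median of all 4805 kept genes, -0.08. Among the lists drawn, the GTPase and CXCR3 medians lie furthest right and that of the alternatively activated macrophage list furthest left, and the acinar, respiratory chain and ER stress lists hold no gene at 2-fold or more.

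The genes that were lower in diabetogenic islets were led by markers of alternatively activated macrophages and by chemokines of CC type. Of 25 genes in the alternatively activated list, all with a probe set, 14 were kept, 13 had a negative difference and 10 were 2-fold or more lower, with a median of -1.63 (-0.64 over all 25). Over all genes kept 0.916% were 2-fold or more lower. Of these 10, 7 passed the intensity limit through the protected array only, so they lay under 10 in diabetogenic islets by that rule. Among all genes kept in that way 5.45% were 2-fold or more lower and none could be 2-fold or more higher. Ccl24, an eosinophil attractant made by such macrophages, read 4.20 in diabetogenic, 118 in protected and 1.12 in untreated islets. Its difference of -4.28, 19.4-fold, was the most negative among all genes kept. Chil3, a chitinase-like secreted protein, read 2.75, 34.3 and 1. Fn1, which encodes fibronectin, read 3.36, 29.6 and 3.73, with a dimmer probe set at -0.65.

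Further members of that list were brighter or more moderate. Tgm2, a transglutaminase that crosslinks matrix proteins, read 218 in diabetogenic, 907 in protected and 29.4 in untreated islets. Ccl17, a chemokine for T helper 2 and regulatory T cells through CCR4, read 132, 559 and 3.00. Both were thus well above the untreated level in diabetogenic islets as well, whereas Chil3 and Fn1 were not. Arg1, the arginase that competes with nitric oxide synthesis for arginine, read 11.1, 38.0 and 4.64, and Retnla read 6.17, 23.6 and 4.38. The scavenger receptor genes Mrc1 (2.68, 11.9 and 2.67) and Cd163 (2.29, 10.1 and 1.37) were bright enough to be kept only through the protected array, and with a pseudocount of 8 the difference of Mrc1 was -0.90 and that of Cd163 -0.81. Ccl22, the second CCR4 ligand, differed little at 9.03, 11.7 and 3.17, and Chil4 read 11.2, 10.3 and 10.4.

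The list of CC chemokines and their receptors shares Ccl17, Ccl22 and Ccl8 with that list. It held 14 chemokines and 4 receptors with a probe set, of which 6 chemokines and 1 receptor were kept. Of these, 3 were 2-fold or more lower and 1 higher. Of the 3 lower genes, 2 passed the intensity limit through the protected array only, a way in which 5.45% of genes were 2-fold or more lower. Ccl9 read 4.90 in diabetogenic, 54.6 in protected and 3.61 in untreated islets, although its second, dimmer probe set differed by only -0.29. Ccl6, a related attractant of myeloid cells, read 4.55, 16.5 and 1.56, with -1.51 on its second probe set. Ccl5, which draws T cells and is made by them, ran the other way at 50.5, 12.2 and 4.04, a difference of 1.89. Among other CXC chemokines the neutrophil attractant Cxcl3 was lower at 3.81, 12.9 and 1 and Cxcl1 did not reach 2-fold at 30.8, 40.9 and 6.23.

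Other lower genes stood beside these. Timp1, an inhibitor of matrix metalloproteinases, read 7.32 in diabetogenic, 34.5 in protected and 2.28 in untreated islets. Its relative Timp3 was higher, at 17.4, 6.60 and 9.24, though its 3 other probe sets differed by -0.14 to 0.83. Fabp5, a fatty acid carrier of macrophages and epithelia, read 26.7, 108 and 16.03, with -1.73 on its second probe set. The lectin receptor gene Clec4n (dectin-2) read 4.83, 24.9 and 2.78, and the endocytic adaptor gene Dab2 read 4.45, 25.6 and 4.6. The other probe set of Clec4n differed by -0.42 and the 3 others of Dab2 by -0.28 to 0.12. Rnase2a, an eosinophil-type ribonuclease, read 9.49, 39.4 and 2.35. Eosinophil-defining genes were dim on every array, with Epx at 1.62, 2.52 and 2.18, Prg2 at 2.73, 3.03 and 2.38, and Siglecf at 1.43, 4.06 and 3.14.

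General leukocyte markers lay closer between the groups, with few at 2-fold. In bulk tissue fewer cells of a type and less RNA per cell cannot be told apart. The 25 macrophage markers with a probe set summed to 588 in diabetogenic, 643 in protected and 143 in untreated islets, and of the 13 kept only Mpeg1 reached 2-fold, at 43.0, 20.04 and 5.49. Csf1r, the receptor for the macrophage growth factor, read 80.3, 129 and 23.9, Lyz2 read 28.8, 29.8 and 4.18, and the defining marker Adgre1 read 7.73, 10.5 and 7.58. The part of macrophage number or type in the differences of the macrophage lists was not tested. The 22 T cell markers summed to 110.4, 100.7 and 93.0, with 3 kept and none at 2-fold. Cd3e read 3.19, 7.56 and 1.96 and Cd4 read 2.47, 2.42 and 2.49, so T cell content could not be compared from them at this brightness. The 12 natural killer cell markers summed to 50.3, 36.5 and 35.9 with none kept, and the 14 dendritic cell markers to 73.9, 94.9 and 47.1 with none at 2-fold.

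The T helper genes were almost all dim. Of 32 with a probe set 3 were kept, and apart from Ifng these were Bcl6 (10.4 in diabetogenic, 10.4 in protected and 16.4 in untreated islets) and the adhesion receptor gene Cd44 (15.7, 28.9 and 11.8). Il4 read 1.26, 2.98 and 1.69, Il13 read 3.45, 2.79 and 1.40, and Il5 read 2.89, 2.20 and 2.97. The cytokines that drive the alternatively activated state were thus under 10 on all 3 arrays, and no difference between groups was detectable there.

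Islet cell genes were close between the groups. Of 31 beta cell genes with a probe set 26 were kept, none was 2-fold or more higher and 1 was lower, with a median of -0.18. The intensities of all 31 summed to 10129 in diabetogenic, 11159 in protected and 11446 in untreated islets. Iapp, which is secreted with insulin, read 769, 919 and 505. The gene that differed was Nnat, a small membrane protein, at 10.5, 31.7 and 11.1, and the granule proteins Scg5 (191, 364 and 127) and Scg2 (254, 462 and 312) came next without reaching 2-fold. The other hormone genes lay within 2-fold, with Sst (somatostatin) at 75.2, 108 and 49.5 and Pyy (peptide YY) at 186, 321 and 298.

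Acinar genes, which mark exocrine tissue in the capture, were slightly higher in diabetogenic islets, with a median of 0.20 over 24 kept genes and none at 2-fold. The 28 with a probe set summed to 2836 in diabetogenic, 2368 in protected and 3820 in untreated islets, and their part in other differences was not tested. Among the Reg genes, secreted lectins of exocrine and injured islet tissue, Reg3b was lower at 7.88, 23.3 and 13.01, with -0.92 on its second probe set, while Reg1 read 64.5, 60.1 and 94.7. Of 29 ER stress genes 23 were kept with none at 2-fold, and Atf4 was the furthest from 0 at 182, 274 and 253. The 35 respiratory chain genes kept had a median of 0.07 and none at 2-fold. Of 9 housekeeping genes kept, Eef1a1 alone reached 2-fold, at 284, 680 and 257.

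The largest differences also included genes outside any list, mostly dim ones. Pramel12, a member of a germline gene family, read 72.9 in diabetogenic, 4.37 in protected and 3.23 in untreated islets, while its 2 other probe sets differed by -0.08 and 0.05. Nup54 (28.3, 3.04 and 2.86), a nuclear pore protein, had 4 other probe sets with differences between -0.25 and 0.08. Kdm5d (16.1, 1.24 and 1), Bphl (19.8, 2.03 and 4.54) and Armc3 (18.4, 2.21 and 3.12) likewise had other probe sets that differed by less than 0.5 in either direction. Olfr749, an olfactory receptor gene, read 12.96, 1 and 1 on its single probe set. On the lower side Ercc2 (1.10, 11.4 and 10.2), a helicase of DNA repair, and Thap6 (1.75, 12.5 and 2.36) had second probe sets at -0.38 and 0.09. Plaat3, a phospholipase, read 59.7, 10.7 and 11.5, though its other probe set differed by 0.53.

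Several bright genes of no list, picked out after their values were seen, lay beside the interferon targets. Plac8 read 127 in diabetogenic, 32.8 in protected and 6.52 in untreated islets. Ubd, a ubiquitin-like modifier induced by IFN-γ and tumour necrosis factor, read 26.8, 6.57 and 6.13. Wars, a tryptophan tRNA synthetase known as an IFN-γ target, read 47.8, 15.4 and 11.3, and Samhd1, a nucleotide hydrolase that limits viruses, read 48.0, 18.6 and 5.44. Among the lower genes Mt1 (metallothionein) read 231, 592 and 210, and Adh1 read 293, 739 and 355.

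Promoter letters were counted over the genes with an entry in the RefSeq table, as a description. An ISRE-like match lay in 18 of 104 genes that were 2-fold or more higher (17.3%), in 2 of 35 that were 2-fold or more lower (5.71%), in 134 of 3831 within 2-fold (3.50%) and in 3.99% of all 27025 genes of the table. For GAS-like matches the shares were 11.5%, 14.3%, 7.05% and 9.55% in that order, and for STAT6-like matches 10.6%, 14.3%, 6.4% and 8.01%. The higher genes that reached 10 on both arrays held an ISRE-like match in 8 of 26 cases (30.8%) and those that reached it on the diabetogenic array only in 10 of 78 (12.8%). Of the 12 GBP and IRG genes kept, 8 had an entry, and 6 of these held an ISRE-like match (75%), namely Gbp2, Gbp3, Gbp7, Igtp, Irgm1 and Irgm2. Ifi47 and Irgq held none in these 300 bases.

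The same genes were followed to days 4 and 8, where the diabetogenic arrays had less signal at the bright end than the protected ones. On day 4 the 99th percentile of intensity was 25.6 for diabetogenic and 67.0 for protected islets, and on day 8 it was 68.2 and 85.2. Lower in the range day 8 ran the other way, with a median of 3.96 for diabetogenic and 3.56 for protected islets and 13.3% and 11.9% of probe sets at 10 or more. Over all 4805 genes the median difference was -0.57 on day 4 and -0.50 on day 8, and 31.7% and 26.1% of genes were 2-fold or more lower in diabetogenic islets, against 1.87% and 2.5% that were higher. Spiked hybridisation controls also separated the days, with medians of 1.93 in diabetogenic and 1.48 in protected islets on day 3 and at least 551 on each later array.

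Of the 133 genes higher on day 3, 13 (9.77%) were 2-fold or more higher on day 4 and 11 (8.27%) on day 8, while 11 and 10 were 2-fold or more lower. Only 33 of the 133 reached an intensity of 10 on either array of day 4 and 47 on day 8. Of the 44 lower genes, 32 reached it on day 4 and 27 on day 8, and 31 (70.5%) were 2-fold or more lower on day 4 and 24 (54.5%) on day 8. At 2-fold or more in the same direction on all 3 days there were 3 higher genes, Gbp6, Saa3 and Ccdc18, and 21 lower genes, among them Ccl24, Chil3, Ccl9, Ccl17, Tgm2, Rnase2a, Retnla, Arg1 and Timp1. The low side of days 4 and 8 is to be read against the backgrounds of 31.7% and 26.1%.

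Single genes show how the groups stood on the later days. Cxcl9 read 31.9 in diabetogenic and 3.50 in protected islets on day 4, and 89.3 and 56.8 on day 8, where its difference was 0.63. Cxcl10 read 2.24 and 2.17 on day 4 and 6.14 and 6.02 on day 8. These values all lay under 10, so whether its day 3 difference lasted cannot be read from them. Gbp2 read 55.6 and 21.9 on day 4 but 72.5 and 83.1 on day 8.

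On the lower side Ccl24, Chil3 and Rnase2a stayed far apart. Ccl24 read 10.8 in diabetogenic and 476 in protected islets on day 4, and 1.26 and 56.0 on day 8. Chil3 read 4.01 and 352 on day 4, and 16.8 and 140 on day 8. Rnase2a read 4.17 and 382 on day 4, and 4.68 and 133 on day 8. For other genes the distance narrowed. The difference of Mrc1 was -0.20 on day 4 and -0.43 on day 8, and that of Tgm2 -1.37 and -1.18. On day 8 Clec4n read 67.8 and 67.4, and Fabp5 read 322 and 292.

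**Figure D5:**
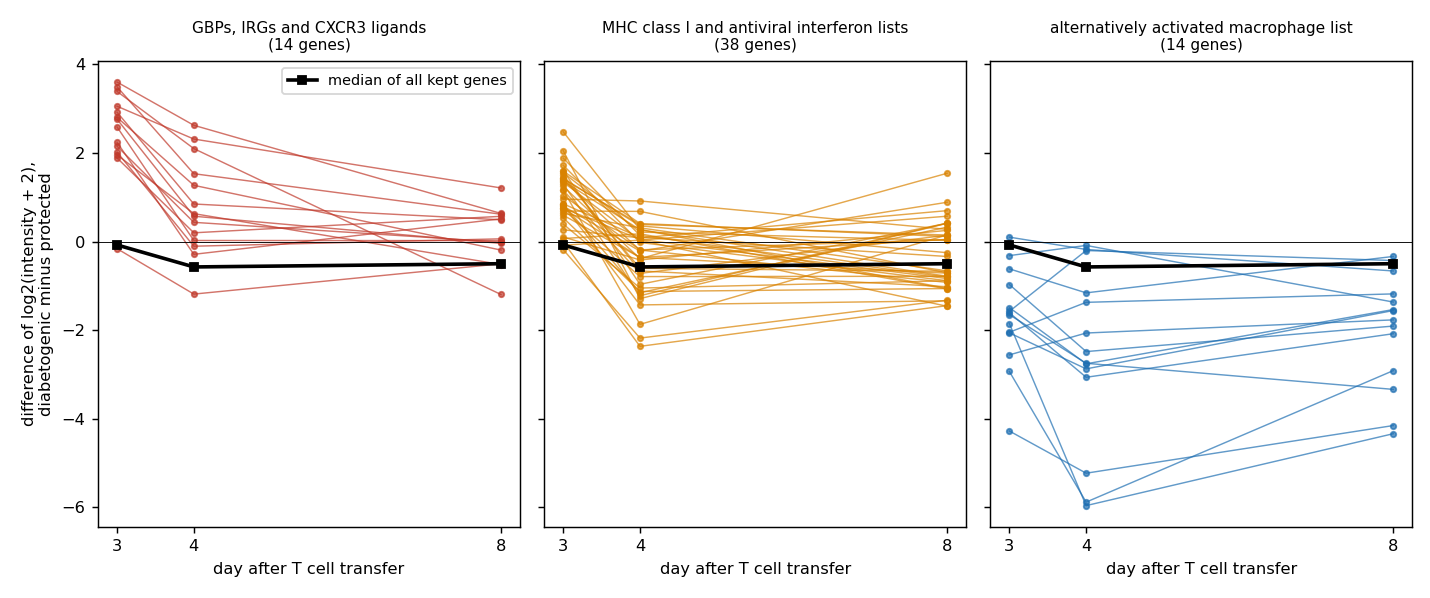
Difference of log2(intensity + 2), diabetogenic minus protected, on days 3, 4 and 8 (1 array per group and day, 1 line per kept gene) for GBP, IRG and CXCR3 ligand genes (left), MHC class I and antiviral interferon genes (middle) and the alternatively activated macrophage list (right). Black squares are the median of all 4805 kept genes, -0.08, -0.57 and -0.50. Most left-hand genes come down from day 3 towards 0 by day 8, and most right-hand genes stay below the black line on all days.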

How the data were processed

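Islet RNA was measured on 8 Affymetrix arrays, of which the 2 of day 3 were compared. The authors deposited probe set intensity values on a linear scale for 45101 probe sets. Per the labels' protocols, RNA came from laser-captured islets and was amplified before biotin labelling. The summarisation and scaling steps are not given in the sources used here. Of the probe sets, 34958 carried 1 gene symbol in the platform annotation, 932 several and 9211 none. Per gene, the probe set with the highest mean over 8 arrays was used. Values were analysed as log2(intensity + 2) in Python 3.11.15, which understates differences of dim genes. No test was made, because each group is 1 array. The calculation was tested on simulated data, with known changes placed in bright genes only and with noise smaller than the spread seen here. That test does not speak to the dim genes among those called.

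The day 3 pair, the genes and the 38 lists (769 genes, 657 with a probe set, 300 kept) were chosen with earlier results of these data known. Named genes are the 20 highest, the 20 lowest, the 4 furthest from 0 per list and a fixed set. Others named, including list members outside these 4, were chosen after their values were seen. Alternatives covered pseudocount, intensity limit, scaling and probe set choice.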

Additional observations from a re-analysis of the deposited data

Results flagged for a closer look

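A set of 7 named genes was 2-fold or more higher in diabetogenic islets on day 3 and 2-fold or more lower on a later day. Over all 133 higher genes this held for 11 (8.27%) on day 4 and 10 (7.52%) on day 8, where 31.7% and 26.1% of all genes kept were 2-fold or more lower. The change between days was not tested. On day 4 the difference was -1.11 for Bphl, -1.29 for Oas2, -1.33 for Cd40 and -1.22 for Psmb10, beside a median of -0.57 for all genes kept. On day 8 it was -1.19 for Iigp1, -1.15 for Nup54 and -1.06 for Rtp4, beside a median of -0.50. Bphl (1.71 in diabetogenic and 6 in protected islets) and Oas2 (2.62 and 9.28) lay under 10 on both arrays of day 4. Nup54 (1.75 and 6.34) and Rtp4 (2.20 and 6.73) lay under 10 on both arrays of day 8. At this brightness a reversal of these genes cannot be read from the values.

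Probe sets outside the gene table also differed on day 3. Of 529 probe sets with no gene symbol that reached 10 on either array, 46 were 2-fold or more higher in diabetogenic islets and 8 lower. The furthest read 1327 in diabetogenic, 77.5 in protected and 39.2 in untreated islets. Of 316 with several symbols, 12 were higher and 1 lower, and the furthest read 441, 31.0 and 12.2. Beside these counts stand 133 higher (2.77%) and 44 lower (0.916%) of the 4805 genes kept.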

How the results depend on the processing

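Counts moved most with the pseudocount and the intensity limit. Genes 2-fold or more higher numbered 75 with a pseudocount of 8, 256 with a limit of 5, 61 with a limit of 20 and 275 with no limit, against 133. Genes 2-fold or more lower numbered 21, 80, 28 and 88 in that order, against 44. Under the other 8 alternatives they ranged from 99 to 160 and from 33 to 63. Of 1642 values of named genes under alternatives, 1567 moved by less than 0.46, and no gene called at 2-fold changed sign. Changes of the intensity limit and subtraction of the median could not move a gene that far, so this share overstates how stable the values are. With a pseudocount of 8, 33 values moved by 0.46 or more and 109 did not. With the lowess curve removed, 15 did and 127 did not. Without a limit the median of the alternatively activated list was -0.64, against -1.63. No paired analysis was possible because the day 3 comparison holds 1 array per arm, and no array could be left out for the same reason. Pairs by day exist only across days 3, 4 and 8. The dim end of the arrays limits what can be compared.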
